A study of Sus scrofa with 48 samples.

Results

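The 8 genes described here, PCP4, FGF11, KIF1A, FXYD3, PLA2G12A, NPM2, TGM1 and TGM3, are best known from neurons, epithelia, lipid metabolism or germ cells, and they were chosen by the size of the difference of their blood RNA between 2 lines of pigs. The array spots were found by the gene name in the scanner files among the 37113 spots that the authors retained, which gave 7 genes with 8 probes. TGM1 had no retained spot under that name and was matched through its RefSeq gene number, which gave 2 further probes, and it is reported beside the others on that basis. The genes are 8 of the 9141 gene symbols with a retained spot, of which 6 had 1 probe and 2 (FXYD3 and TGM1) had 2 probes. The values that chose them are the means of the 24 pigs of each line, and the difference between lines is therefore given below as a description without a test.

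The samples were whole blood of 48 French Large White castrated male pigs killed at 132 days of age, from a divergent selection on residual feed intake (RFI), the feed an animal eats beyond what its growth and maintenance require. The low RFI line (RFIneg) is the efficient one and the high RFI line (RFIpl) the inefficient one. In each line 12 pigs were fed ad libitum a high fat, high fiber (HF) diet and 12 a low fat, low fiber (LF) diet. Every animal had its own single-colour array, and each of 6 slides, scanned on 3 days, carried 2 arrays of each group. Each direction of selection was represented by 1 line, so that selection and any other divergence of the lines cannot be told apart, and the kinship of the pigs was not used here.

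PCP4 is a small protein that binds calmodulin and is abundant in Purkinje cells. KIF1A is a kinesin motor that carries synaptic vesicle precursors along axons, and FGF11 is a fibroblast growth factor homologue that stays inside the cell. FXYD3 is a small membrane protein that modulates the Na,K-ATPase, PLA2G12A is a phospholipase A2, NPM2 is a histone chaperone of the oocyte, and TGM1 and TGM3 are transglutaminases that cross-link the proteins of the cornified envelope in skin and hair.

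Each probe has 60 bases, and a stretch of 30 bases of each is shown because every level below is the brightness of a whole probe of this kind and not of the rest of the gene. The stretches are read from the scanner files as printed there, and capitals mark a polyadenylation signal, AATAAA or its common variant ATTAAA, wherever the stretch shown holds one (FGF11 holds the variant more than once). Where a probe has none the last 30 bases are given.
PCP4: tgcaaccgtgagtggcttcatctctgttta
FGF11: catgctttctcaATTAAAgATTAAAgacga
KIF1A: gtccggttaagaAATAAAcatggctcttta
FXYD3 probe 1: ggtctctctattcaattttcattctaaaat
FXYD3 probe 2: agaacagtcctttctactatgactggcaca
PLA2G12A: ccaaaaagtaaggtcaagtgtaagattcat
NPM2: cctcaagagcacAATAAAgtttgctttgct
TGM1 probes 1 and 2: tgcacggatgctAATAAActgttttttaat
TGM3: ggagaagtcagcgaggagctgcttggtgcc

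AATAAA was present in 4 of the 10 probes (KIF1A, NPM2 and both of TGM1) as printed, compared with 12% of all retained probes, and on the opposite strand in 0 of the 10 compared with 4.34%. ATTAAA was present as printed in 1 probe (FGF11) compared with 4.46% of all, and on the opposite strand in 2 compared with 3.08%. These matches describe letters in the probe and not a site that was tested. The TGM1 probes overlap by 57 bases, hence they count as 1 measurement of the same stretch, whereas the FXYD3 probes share no run of 20 bases. No other spot of the array shared 20 bases with any of the 10 probes.

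All values are log2 intensities relative to the median of the array, so that 0 is the level of the median retained spot and a difference of 1 is a change of 2-fold. The software of the scanner called 9 of the 10 probes well above background in 48 of 48 pigs. The exception was PCP4, which was well above background in 44 pigs, in 8 of 12 in the low RFI HF group and in every pig of the other groups. No non-control spot was saturated. Within the 4 groups the SD of the genes was 0.39 (PLA2G12A) to 1.46 (NPM2), compared with 0.23 for the median gene of the array.

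**Figure D1:**
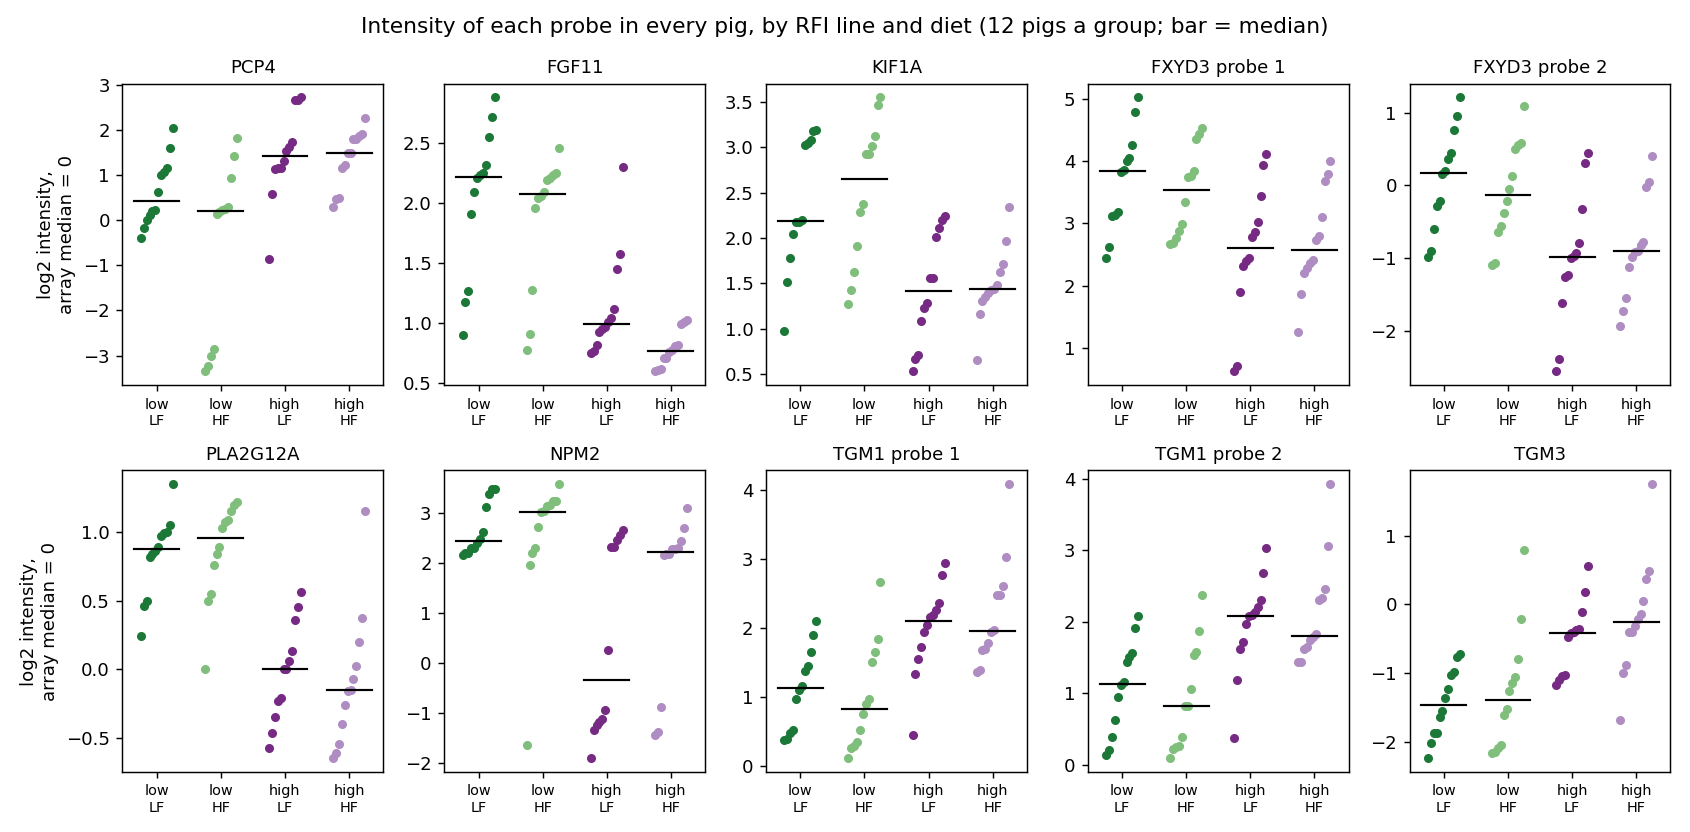
Log2 intensity relative to the array median (vertical axis) of each of the 10 probes in every pig, by line and diet (horizontal axis; 12 pigs a group, bars are medians). PCP4 and NPM2 have pigs far below the rest of their group, and single pigs stand above the rest for TGM1 and TGM3.

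PCP4 was underexpressed in low RFI pigs, with a group of pigs in which it was at background. Its intensity ranged in low RFI pigs from -0.40 to 2.04 (median 0.42) on the LF diet and from -3.35 to 1.81 (median 0.21) on the HF diet. High RFI pigs ranged from -0.87 to 2.72 (median 1.43) on the LF diet and from 0.30 to 2.27 (median 1.49) on the HF diet. The low RFI pigs were thus lower on either diet with wide overlap, and 21 of 24 were below the high RFI median. The line difference (low minus high RFI) was -1.39 (SE 0.33), a 2.62-fold lower intensity, and was -1.95 (SE 0.47) on HF and -0.83 (SE 0.47) on LF. With the background-corrected scanner signal, in which pigs at background fall further, it was -1.98.

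The PCP4 values of low RFI pigs fell on 2 levels. A level pattern was called when the widest gap between neighbouring pigs of a line, with 3 or more pigs on each side, was 1 or more on the log2 scale. A gap of 2.45 separated 4 pigs between -3.35 and -2.86 from 20 pigs between -0.40 and 2.04. The 4 lower pigs, on 3 slides, were all fed HF, and their median pixel intensity was 38 to 49 compared with 243 to 2010 in the other 20. They are the 4 arrays on which PCP4 was not well above background, so that their values are bounds. The size of the line difference of PCP4 depends on them. The widest such gap of high RFI pigs was 0.54 and their values were graded.

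KIF1A was overexpressed in low RFI pigs by about the same amount on both diets. Its intensity in low RFI pigs was 0.98 to 3.19 (median 2.19) on LF and 1.27 to 3.55 (median 2.64) on HF. High RFI pigs had a range of 0.53 to 2.24 (median 1.42) on LF and 0.66 to 2.34 (median 1.43) on HF. The ranges overlapped, with 12 of 24 low RFI pigs within the high RFI range and 22 of 24 above the high RFI median. The line difference was 0.97 (SE 0.18), or 1.96-fold, and was 1.01 on HF and 0.93 on LF. By slide it varied from 0.11 to 1.82.

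FGF11 was overexpressed in low RFI pigs and had its narrowest distribution in high RFI pigs on HF. Low RFI pigs ranged from 0.90 to 2.88 (median 2.22) on LF and from 0.78 to 2.46 (median 2.08) on HF. High RFI pigs ranged from 0.75 to 2.30 (median 0.99) on LF and from 0.60 to 1.03 (median 0.77) on HF. The SD was 0.15 in high RFI pigs on HF and 0.44 to 0.62 in the other groups, and 23 of 24 low RFI pigs were above the high RFI median. The line difference was 0.99 (SE 0.13), or 1.99-fold, and was 1.09 on HF and 0.90 on LF. Of the low RFI pigs 6 lay below a gap of 0.62, between 1.28 and 1.91, which did not reach the limit for 2 levels.

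FXYD3 was overexpressed in low RFI pigs on both of its probes, which do not overlap in sequence. On the first probe low RFI pigs ranged from 2.44 to 5.03 (median 3.85) on LF and from 2.67 to 4.54 (median 3.54) on HF, and high RFI pigs from 0.62 to 4.12 (median 2.61) on LF and from 1.25 to 4.01 (median 2.57) on HF. The groups overlapped on this probe, with 23 of 24 low RFI pigs above the high RFI median. On the second probe low RFI pigs ranged from -0.99 to 1.21 (median 0.17) on LF and from -1.10 to 1.09 (median -0.13) on HF, and high RFI pigs from -2.56 to 0.44 (median -0.99) on LF and from -1.93 to 0.40 (median -0.91) on HF. Again the groups overlapped, and 21 of 24 low RFI pigs were above the high RFI median. The line difference was 0.97 (SE 0.24) on the first probe and 0.94 (SE 0.21) on the second. Over 24 pigs of a line the probes had a Pearson correlation of 0.96 in low RFI and 0.98 in high RFI after removing the diet means, and the values were graded on both.

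PLA2G12A had the smallest line difference of the 8 genes and the least spread. Its intensity in low RFI pigs was 0.24 to 1.35 (median 0.87) on LF and 0.00 to 1.22 (median 0.96) on HF. In high RFI pigs it was -0.58 to 0.56 (median 0.00) on LF and -0.65 to 1.15 (median -0.15) on HF. A single high RFI HF pig, at 1.15, stood 0.59 above the next in its line and made the ranges of the lines overlap widely. The line difference was 0.90 (SE 0.11), or 1.87-fold, was 0.95 on HF and 0.85 on LF, and stayed between 0.65 and 1.21 on the 6 slides.

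NPM2 was overexpressed in low RFI pigs, and the high RFI pigs fell on 2 levels. Among low RFI pigs it ranged from 2.15 to 3.48 (median 2.44) on LF and from -1.65 to 3.58 (median 3.03) on HF. Among high RFI pigs it ranged from -1.91 to 2.66 (median -0.34) on LF and from -1.45 to 3.11 (median 2.23) on HF. A gap of 1.89 in the high RFI line separated 10 pigs between -1.91 and 0.26 from 14 pigs between 2.15 and 3.11. The highest of the 10, an LF pig at 0.26, lay between the levels, since the next pig below it was at -0.89. The lower level held 3 HF and 7 LF pigs on 5 slides and the upper level 9 HF and 5 LF pigs on 5 slides.

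The upper level of NPM2 in high RFI pigs lay within the range of the low RFI pigs, of which 23 were graded and 1, on the HF diet, was at -1.65 and 3.60 below the next. Unlike PCP4, the lower level of NPM2 was well above background on every array. Its median pixel intensities were 99 to 392 (392 in the pig at 0.26), compared with 1410 to 3164 in the upper level. The line difference of the means was 1.64 (SE 0.41), or 3.11-fold, and was 1.0 (SE 0.58) on HF and 2.27 (SE 0.58) on LF. On the slides it varied from 0.18 to 3.61. Of the 9141 genes NPM2 ranked 2 and PCP4 ranked 6 by the size of the line difference, and the other 6 genes ranked between 13 and 22.

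**Figure D2:**
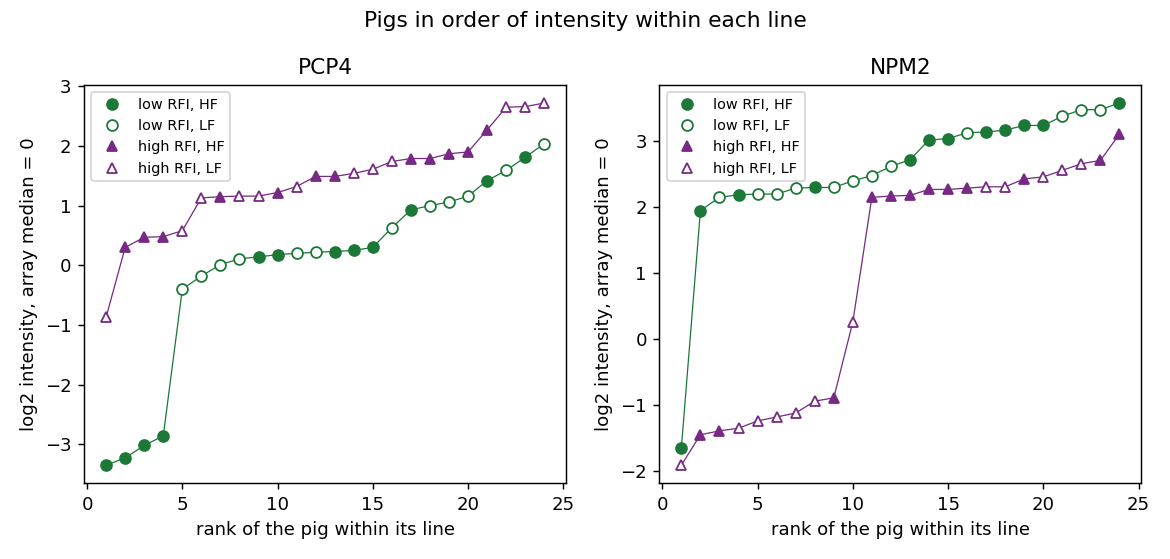
Log2 intensity of PCP4 and NPM2 (vertical axes, array median = 0) against the rank of the pig within its line (horizontal axes; 24 pigs a line, filled symbols HF, open symbols LF). The step of 2.45 in PCP4 lies in the low RFI line and the step of 1.89 in NPM2 in the high RFI line.

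Of the 10 probes in both lines, only PCP4 in low RFI and NPM2 in high RFI met the limit for 2 levels. The same calls were obtained with the background-corrected signal, where the gap was 5.69 in PCP4 and 1.89 in NPM2. Over the array 43 of 37113 probes (0.116%) met it in low RFI pigs and 43 (0.116%) in high RFI pigs, and since genes with a large difference of line means were chosen, nothing is read from this share. In no member did the values of the lines separate completely, and this was so for 0 of the 9141 genes (0%).

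TGM1 was underexpressed in low RFI pigs. On its first probe low RFI pigs ranged from 0.37 to 2.10 (median 1.12) on LF and from 0.11 to 2.66 (median 0.82) on HF. The high RFI pigs ranged from 0.45 to 2.94 (median 2.10) on LF and from 1.35 to 4.08 (median 1.95) on HF. The ranges overlapped and 22 of 24 low RFI pigs were below the high RFI median. The line difference was -1.04 (SE 0.20), a 2.05-fold lower intensity, and it was -1.03 (SE 0.20) on the overlapping second probe. Over the mean of both it was -1.21 on HF and -0.86 on LF.

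TGM3 was lower in low RFI pigs by nearly the same amount. The low RFI pigs ranged from -2.24 to -0.73 (median -1.46) on LF and from -2.16 to 0.79 (median -1.39) on HF. Those of the high RFI line ranged from -1.17 to 0.56 (median -0.42) on LF and from -1.68 to 1.75 (median -0.27) on HF. Here too 22 of 24 low RFI pigs were below the high RFI median, while the highest pig of each line stood 0.99 (low RFI) and 1.19 (high RFI) above the next. The line difference was -1.02 (SE 0.20), a 2.03-fold lower intensity, and was -1.07 on HF and -0.96 on LF.

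**Figure D3:**
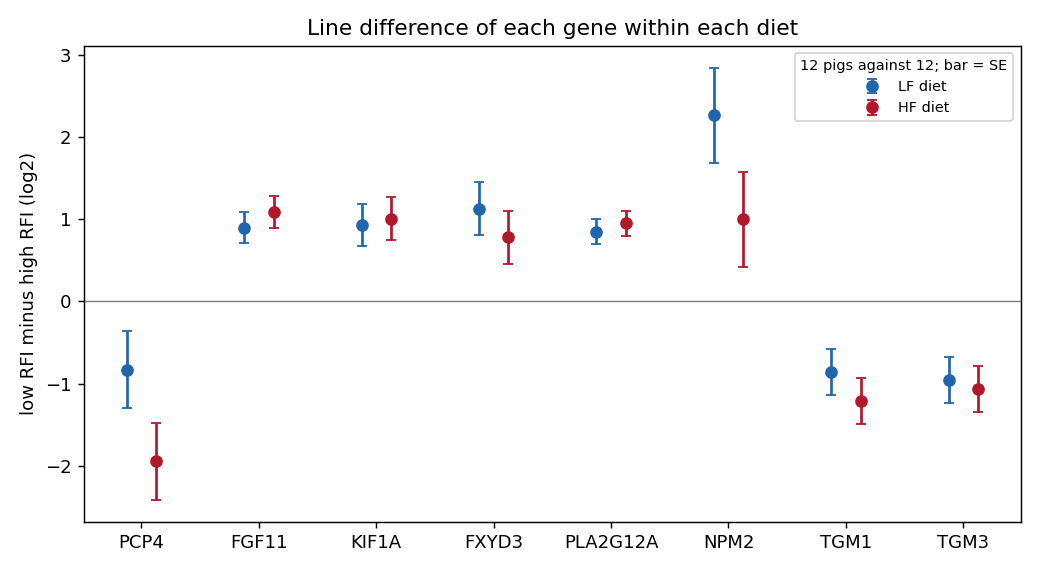
Line difference, low minus high RFI on the log2 scale (vertical axis), of each gene (horizontal axis) within the LF and the HF diet, with the SE; 12 pigs against 12. Each gene has the same sign on both diets, PCP4 is larger on HF (-1.95 against -0.83) and NPM2 larger on LF (2.27 against 1.0), and these contrasts did not pass the interaction test.

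The line contrast called 317 of 9141 genes (3.47%) at an adjusted P-value under 0.05 by limma with Benjamini-Hochberg correction, and this contrast chose the 8 genes.

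The contrast of the diets was not used to choose the genes. Between HF and LF, 0 of 8 had an adjusted P-value under 0.05 by limma, compared with 0 of 9141 genes (0%) in the whole table, and 191 genes (2.09%) had an unadjusted P-value under 0.05, none of which is among the 8. The lowest P-values were those of PCP4, with a difference of -0.66 (95% interval -1.33 to 0.01, P-value 0.053, adjusted 1 by limma), and FGF11, with -0.26 (interval -0.53 to 0.01, P-value 0.057, adjusted 1 by limma). With the background-corrected signal the difference of PCP4 was -1.21, which did not pass either. The intervals of FGF11, KIF1A (-0.28 to 0.46), FXYD3 (-0.46 to 0.44), PLA2G12A (-0.24 to 0.20), TGM1 (-0.37 to 0.43) and TGM3 (-0.18 to 0.63) lay within a change of 2-fold in either direction, whereas those of PCP4 and of NPM2 (-0.37 to 1.27) reached beyond it.

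Within the low RFI line PCP4 was 1.22 lower on HF (log2 difference -1.22, SE 0.47, P-value 0.013, adjusted 1 by limma), which did not pass the correction. The medians of the diets in this line, 0.42 on LF and 0.21 on HF, differed much less than the means, 0.62 ± 0.75 (SD, n = 12) and -0.60 ± 1.93 (SD, n = 12), since the 4 pigs at background were all fed HF. Within the high RFI line NPM2 was 1.09 higher on HF (SE 0.58, P-value 0.065, adjusted 0.85 by limma) and FGF11 differed by -0.35 (SE 0.19, P-value 0.069, adjusted 0.85 by limma), and neither passed.

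The interaction of line and diet likewise called 0 of the 8 genes, compared with 0 of 9141 in the table (0%) and 216 (2.36%) at an unadjusted P-value under 0.05. It was largest in size for NPM2, at -1.27 (SE 0.81, interval -2.91 to 0.37, P-value 0.13), and PCP4, at -1.12 (SE 0.66, interval -2.46 to 0.22, P-value 0.099), and neither interval excludes 0. With the background-corrected signal PCP4 had the larger value, -2.23 or -2.22 by the centring (NPM2 -1.38 or -1.37), and it did not pass there either. FXYD3 and TGM1 each had an interaction of -0.35, and FGF11, KIF1A, PLA2G12A and TGM3 had 0.18, 0.07, 0.10 and -0.11.

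**Figure D4:**
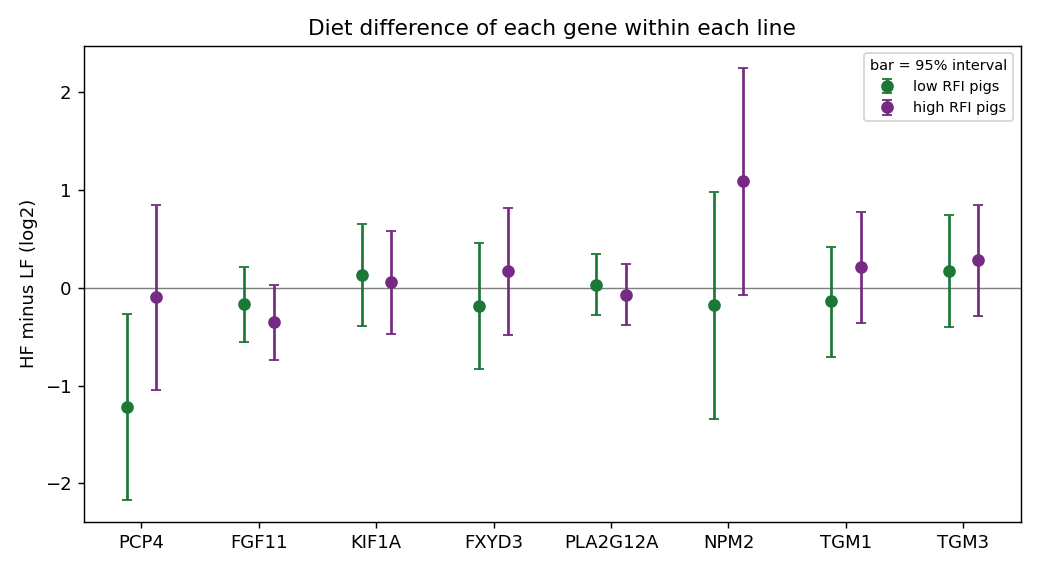
Diet difference, HF minus LF on the log2 scale (vertical axis), of each gene (horizontal axis) within the low and the high RFI line, with 95% intervals; 12 pigs against 12. The interval of PCP4 in low RFI pigs (-2.17 to -0.27) is the only one that leaves out 0, and its adjusted P-value was 1.

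Within each line the values of the 8 genes were compared with each other over 24 pigs after removing the diet means, which gave 28 pairs in 2 lines and 56 permutation tests. Of these 3 passed an adjusted P-value of 0.05, and each involved TGM1. TGM1 and TGM3 varied together in low RFI pigs (Pearson r 0.83, permutation P-value 1e-05, which is the smallest that the permutations can give, adjusted 5.6e-04; Spearman rho 0.80, adjusted 0.0011) and r was 0.76 without the 2 pigs farthest from the median of TGM1. In high RFI pigs r was 0.67 (permutation P-value 4.7e-04, adjusted 0.0088), with a rho of 0.55 that did not pass (permutation, adjusted 0.075) and an r of 0.50 without those 2 pigs. PCP4 followed TGM1 in high RFI pigs (r 0.69, permutation P-value 1.8e-04, adjusted 0.005; rho 0.69, adjusted 0.0062), and r was 0.56 without the 2 farthest pigs. In low RFI pigs PCP4 and TGM1 had an r of 0.25 that did not pass (permutation, adjusted 0.56). FGF11 and PLA2G12A had an r of 0.56 there, which did not pass either (permutation, adjusted 0.063).

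Blood is a mixture of cells, and in such samples fewer cells of a type and less RNA per cell cannot be told apart. The levels of the 8 genes were therefore set beside the summed level of markers of 6 blood cell types over the 24 pigs of each line, and 12 of 96 permutation tests passed an adjusted P-value of 0.05. TGM1 followed the neutrophil sum, of 8 measured markers, in low RFI (r 0.78, rho 0.74, permutation, adjusted 9.6e-04) and high RFI pigs (r 0.67, rho 0.61, permutation, adjusted 0.0061). TGM3 did so as well, with r 0.75 in low RFI (rho 0.71, permutation, adjusted 9.6e-04) and 0.62 in high RFI (rho 0.64, permutation, adjusted 0.012).

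The sum of monocyte markers also rose with TGM1, with r 0.73 in low RFI and 0.71 in high RFI (permutation, adjusted 0.0019 in each), and with TGM3 in high RFI (r 0.60, permutation, adjusted 0.012). PCP4 followed the neutrophil sum in high RFI pigs (r 0.64, rho 0.60, permutation, adjusted 0.0089), while r was 0.03 in low RFI pigs (permutation, adjusted 0.96). FXYD3 followed the erythroid sum of 13 markers in both lines, with r 0.62 in low RFI (permutation, adjusted 0.012) and 0.65 in high RFI (permutation, adjusted 0.0089). FGF11 went against the erythroid sum in high RFI pigs (r -0.60, rho -0.78, permutation, adjusted 0.012) and rose with the T cell sum there (r 0.57, permutation, adjusted 0.021). The correlations without the 2 pigs farthest from the median of the marker sum were between 0.48 and 0.77 in size and of the same sign. By Pearson's r, KIF1A, PLA2G12A and NPM2 passed with none of the 6 sums, but by rank KIF1A passed in high RFI pigs with the platelet sum (r 0.37, permutation, adjusted 0.26; rho 0.60, adjusted 0.018) and the T cell sum (r 0.49, permutation, adjusted 0.11; rho 0.56, adjusted 0.034). FGF11 likewise passed by rank alone with the platelet sum in high RFI pigs (r 0.34, permutation, adjusted 0.29; rho 0.57, adjusted 0.026).

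The neutrophil sum itself was 6.80 to 8.86 (median 7.71) in low RFI and 7.10 to 9.19 (median 8.0) in high RFI pigs, on the log2 scale, and 1 of its 8 genes was called lower in low RFI (CXCR2, -0.42, adjusted P-value 0.038 by limma) and 0 higher, compared with 1.72% lower and 1.75% higher over all genes. Of the other lists 1 of 7 monocyte markers (CD14, -0.47) and, among the B cell markers, MS4A1 (-0.36) were called lower, 1 of 13 erythroid markers (SLC4A1, 0.26, but -0.08 on its brightest probe) and 1 of 10 T cell markers (LCK, 0.21, which was lost on its brightest probe at 0.26) were called higher, and 0 of 8 platelet markers were called. With the neutrophil sum in the model the line difference was -0.70 (SE 0.15) for TGM1 and -0.70 (SE 0.16) for TGM3, compared with -1.03 and -1.02 without it. The line difference of PCP4 was -1.21 (SE 0.36) with it, -1.16 (SE 0.36) with the B cell sum and -1.58 (SE 0.36) with the T cell sum, compared with -1.39. With the erythroid sum in the model, which was 9.79 to 11.12 (median 10.52) in low RFI and 9.79 to 11.02 (median 10.52) in high RFI pigs, that of FXYD3 was 0.82 (SE 0.19) compared with 0.96. Other sums moved a difference away from 0, as for NPM2 to 1.88 (SE 0.44) with the neutrophil sum, compared with 1.64 without it. With the T cell sum FXYD3 was at 1.19 (SE 0.22). These values are a description, and the part of the cell mixture was not tested.

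**Figure D5:**
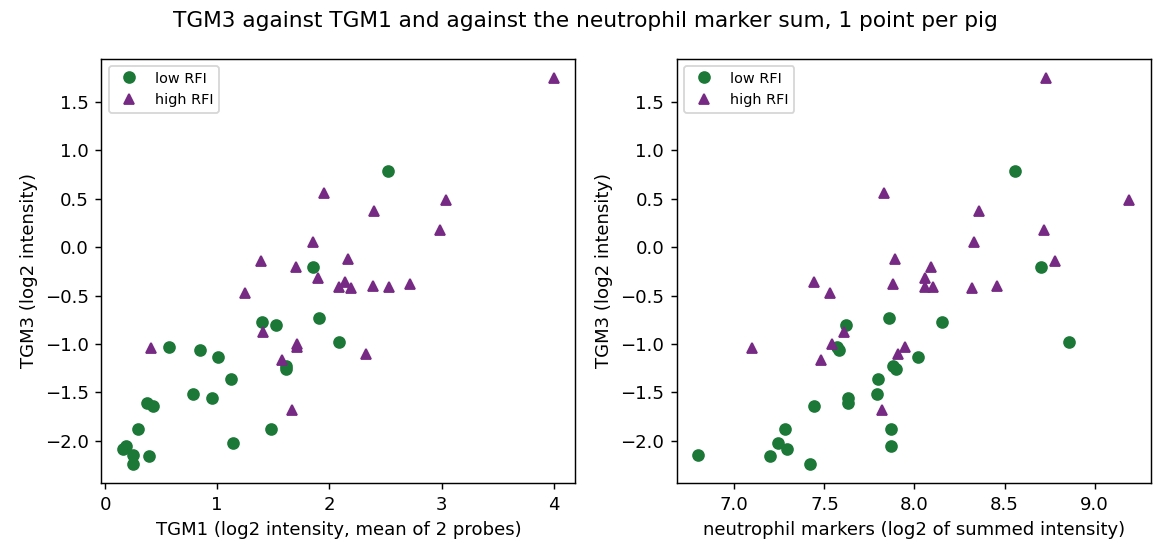
TGM3 (vertical axes, log2 intensity relative to the array median) against TGM1 (left, mean of 2 probes) and against the log2 sum of 8 neutrophil markers (right), 1 point per pig, 24 pigs a line. Within each line the points rise together, with r 0.83 and 0.67 for TGM1 and 0.75 and 0.62 for the neutrophil sum in low and high RFI.

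The genes whose values followed each of the 8 most closely over the 48 pigs, after removing the 4 group means, are given as a description. TGM1 was most like SLC39A1 (r 0.89), a zinc transporter, NUMB (0.86) and TGFA (0.85). TGM3 was also most like SLC39A1 (0.79), followed by ALOX5AP (0.77), which is needed for leukotriene synthesis in leukocytes, and CERS4 (0.77). FXYD3 was most like USF2 (0.71), SMAD6 (0.69) and the keratin KRT73 (0.69), and PLA2G12A most like RGL2 (0.73), FCF1 (0.66) and AHCYL2 (0.64). The closest genes of FGF11 were MIPEP (0.67), NAA35 (0.65) and KCTD6 (0.65), and those of KIF1A were ITGA1 (0.61), INTS12 (0.58) and IK (0.57). PCP4 (RNF31 0.60, ELF1 0.58, PAPSS2 0.56) and NPM2 (TUT1 0.54, CUEDC2 0.54, SNAPC5 0.51) had the weakest likeness. Of the genes named here USF2 (0.34) and RGL2 (0.18, adjusted P-value 0.02 by limma) had a line difference that passed.

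The genes next to the 8 on the chromosomes were taken as up to 3 measured genes on each side in the order of the RefSeq table of assembly Sscrofa11.1. Of 48 neighbours 5 (10.4%) were called higher in low RFI, compared with 160 of 9141 genes (1.75%), and 1 (2.08%) was called lower, compared with 157 (1.72%), and their median difference of 0.03 equalled that of all genes. The nearest measured gene after FXYD3 is USF2, a transcription factor that binds E-boxes. In the low RFI line it was at 5.10 ± 0.36 (SD, n = 24), against 4.76 ± 0.29 (SD, n = 24) in the high RFI line. The difference of 0.34 (SE 0.09) had an adjusted P-value of 0.029 by limma, and USF2 is thus both a neighbour of FXYD3 and the gene most like it. HPN, the nearest measured gene before FXYD3, did not pass (adjusted P-value 0.94 by limma).

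BACE2, the nearest measured gene after PCP4 and a membrane protease, was higher in low RFI pigs by 0.52 (SE 0.13, adjusted P-value 0.012 by limma), opposite in sign to PCP4, and by 0.34 with all non-control spots and 0.68 with the background-corrected signal centred on the array median. Beside TGM1, DHRS1 was higher by 0.29 (SE 0.07, adjusted 0.012 by limma), and TINF2, a subunit of the telomere complex shelterin, was lower by 0.19 (log2 difference -0.19, SE 0.05, adjusted 0.028 by limma), although its brightest probe alone gave 0.04 and the background-corrected signal -0.49. PPP1R7 next to KIF1A (0.15, adjusted 0.041 by limma) and DOK2 near NPM2 (0.20, adjusted 0.043 by limma) also passed, but these calls depended on the processing. PPP1R7 was lost, still at 0.15, with the background-corrected signal centred on the array median, with all non-control spots and with the brightest probe. DOK2 was lost with the background-corrected signal (0.19 by the array median and 0.18 by the 75th percentile), with all non-control spots (0.16) and without high RFI HF replicate 1 (0.19), whereas its brightest probe gave 0.69. The nearest measured genes of FGF11 (PLSCR3 and CHRNB1), of PLA2G12A (CFI and SEC24B) and of TGM3 (SNRPB and PDYN) did not pass.

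Other genes of the same families were read against the 3.47% of all genes that passed the line test. Of the 4 other transglutaminase genes measured (TGM2, TGM5, F13A1 and EPB42) 0 passed, with differences between -0.16 and 0.20 and a median of 0.12. Among genes of the cornified envelope and keratinocytes 5 of 26 were measured and 0 passed, between -0.09 and 0.06 (median 0.00). None of the 8 measured FXYD and Na,K-ATPase genes passed (-0.21 to 0.28, median 0.02), nor did the 3 measured fibroblast growth factors and receptors (0.01 to 0.07, median 0.06), the 11 phospholipases A2 (-0.79 to 0.06, median 0.01), the 18 nucleoplasmins and histone chaperones (-0.14 to 0.14, median 0.05) or the 15 genes of calmodulin and its partners (-0.16 to 0.15, median 0.01). The median over all genes was 0.03. Several of these genes were faint in low RFI pigs, such as TGM5 (-2.49), ALOX12B (-2.37), DSG1 (-2.40), KRT5 (-2.46), FGFR4 (-2.39) and NPM3 (-2.59). The 95th percentile of the negative controls was -3.69 to -2.84 by array, and little can be read from small differences near it.

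Of 24 other kinesin genes, with a median of 0.05, 1 passed, KIF1C, a close relative of KIF1A, which was 0.18 higher in low RFI pigs (SE 0.05, adjusted P-value 0.035 by limma) and was lost, at 0.11, when its brightest probe stood for it. Neuron markers were measured for 6 of 12 genes, with 0 genes called and differences from -0.28 to -0.02. Their summed level was 0.24 to 0.73 in low RFI and 0.31 to 1.01 in high RFI pigs. Each of them alone was below the median spot, with means in low RFI pigs from -2.78 (ENO2) to -1.13 (UCHL1). The defining markers of blood cells were present, with log2 levels in low RFI pigs of 9.19 for HBB and 4.68 for S100A8.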

How the data were processed

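The intensity of every spot stands in scanner files that the authors deposited, together with, for 37113 spots kept by their quality filters (R 3.0.2 in the submitters' processing notes), log2 values. On 47 arrays these log2 values equalled the log2 median pixel intensity minus the array median (within 0.000001), without background subtraction. The column of high RFI HF replicate 1 repeated 2.7086 in 37090 entries and was rebuilt from its scanner file. Symbols came from the gene name (15623 probes), the RefSeq gene number (1862), accession (865) or an older symbol (139), and 18624 probes had none. Probes of a gene were averaged. The supplementary table of the authors' own comparisons was not used.

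A model of 4 groups was fitted with limma 3.58.1 in R 4.3.3, with Benjamini-Hochberg correction over all genes. Correlations used 100000 permutations (scipy 1.17.1, numpy 2.4.6, pandas 2.3.3, Python 3.11.15). In simulated data limma recovered 98.5% of diet changes of 1 and 87.5% of 0.5 on the log2 scale, and 81% of interactions of 1, over 37113 probes. The changed probes were drawn at random from the whole array, each with normal noise of its own SD. These rates therefore do not apply to the 8 genes, whose SD of 0.39 to 1.46 exceeds the 0.23 of the median gene. The 8 genes, the gene lists and the rules were chosen with earlier results of these data known, and the comparison with marker sums was added after the values were seen. Named are the 8 genes, list genes and neighbours that passed (otherwise the nearest neighbours), and the 3 most alike genes of each. HBB, S100A8 and the list members named without a call were chosen after their values were seen. Alternatives were other signals, filters, blocks and probe rules. The median intensity over local background was 5.91 to 16 by array. The number of arrays limits the precision. A single marker gene is not reported here.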

Additional observations from a re-analysis of the deposited data

Results flagged for a closer look

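A further TGM1 spot lies outside the retained table. Its signal was above the 95th percentile of the negative controls on 48 of 48 arrays and well above background on 42, with median pixel intensities of 43 to 136. Relative to the array median its log2 intensity was -2.66 ± 0.24 (SD, n = 24) in the low RFI line and -2.46 ± 0.31 (SD, n = 24) in the high RFI line, and ranged from -3.04 to -1.48. It was called up here because it carries signal in data that the comparisons above did not use.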

How the results depend on the processing

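The 11 alternatives (10 for PCP4, which is left out when every array must be well above background) kept the sign of the line difference of each of the 8 genes, from -1.98 to -1.28 for PCP4, 1.49 to 1.82 for NPM2, -1.07 to -0.75 for TGM1 and -1.32 to -0.89 for TGM3, and the diet and the interaction called 0 of the 8 genes in each of them. Marker sums as covariates, added after the data were seen, also kept these signs. With the deposited column as it stands the neighbours called were 0 higher (5 with the rebuilt column) and 0 lower (1 with the rebuilt column), the family genes called higher 0 (from 1), the markers called 0 higher (from 2) and 1 lower (from 4), and the passing correlations 6 (from 3). The interaction of KIF1A became -0.02 and that of PLA2G12A -0.18, and the diet difference became 0.07 for FXYD3 and 0.12 for PLA2G12A. Without high RFI HF replicate 1 the diet difference of PLA2G12A was 0.00 and 4 neighbours were called higher. The background-corrected signal gave a diet difference of 0.01 for FXYD3 with either centring, and called 3 neighbours higher with the array median and 4 with the 75th percentile. With all non-control spots 3 neighbours and 1 marker were called higher, and normexp called 6 neighbours higher and 1 family gene lower (ATP1B3, -0.21). With the brightest probe 0 markers were called higher and 0 neighbours lower, TINF2 was 0.04 and SLC4A1 -0.08, and TINF2 was 0.05 with 0 neighbours called lower when only probes well above background on every array were kept, where PCP4 is left out and 2 correlations passed. The causes were not tested, apart from the repeated value of the deposited column.

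What a shared replicate number means was not known, and the numbers were not taken as pairs. The correlation of deviations of same-numbered pigs of different groups had a median of 0.20 (72 pairs, lowest -0.60). Its median was 0.09 for other numbers on the same slide and -0.04 for other slides. For 22 of 48 pigs the closest pig of another group had the same number, which 3 of its 36 candidates share. Same-numbered pigs were thus more alike, and the main model and the permutation tests did not take this into account. With the replicate block 6 neighbours were called higher and 1 lower, and 0 of the 8 genes were called for diet or interaction. PCP4 was at background in 4 pigs, and 6 of the 8 genes rest on 1 probe.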
